A study of Mus musculus with 2 samples.

Results

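MHC class II presentation genes code for the proteins that bind peptides from engulfed material and hold them on the cell surface for CD4 T cells. The 9 genes described here were chosen by their role in that route, out of 27031 gene columns: the classical chains H2-Aa, H2-Ab1 and H2-Eb1, the invariant chain Cd74, the peptide exchange chains H2-DMa, H2-DMb1 and H2-DMb2, the H2-O chain H2-Oa, and the transactivator Ciita. An alpha and a beta chain pair in the endoplasmic reticulum, where the invariant chain fills the groove and steers the complex to endosomes. There, proteases trim the invariant chain and H2-DM exchanges its last fragment for a peptide. Ciita binds no DNA itself but assembles on factors already bound at class II promoters, and interferon gamma raises it in macrophages.

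The cells came from MC38 colorectal tumors grown under the skin of female C57BL/6 mice aged 6 to 8 weeks. Mice received telmisartan, an angiotensin receptor blocker, at 5 mg/kg daily into the stomach from the day of implantation, or vehicle on the same schedule, and tumors were taken on day 13. Leukocytes sorted for CD45 from 5 mice per group were pooled, tagged by group and captured together on 1 BD Rhapsody cartridge. The control pool carried Sample Tag 1 and the telmisartan pool Sample Tag 2.

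Since each group is 1 pool, no spread between mice can be measured and no test of treatment is given. Levels are in CPM, the unique molecular identifiers (UMIs) of a gene per 1000000 UMIs of the same cells. The 95% intervals cover counting error only. With 1 pool per group, any difference between the pools in handling before the shared capture cannot be told apart from treatment.

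After limits on genes, mitochondrial share and doublets, 4535 control and 4434 telmisartan cells remained. The limits before doublet removal kept 5078 of 8738 control and 4833 of 10222 telmisartan cells. Median depths were 8689 and 6357.5 UMIs per cell, and the median mitochondrial share was higher in telmisartan, so the pools differ in signs of RNA quality as well as in treatment. Clustering with the 9 genes kept out of the variable genes, followed by naming from fixed markers, gave 8043 macrophage-like, 669 dendritic-like, 186 T-like and 71 neutrophil-like cells. The names were rebuilt here, and the labels that the study gave to single cells were not used.

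Macrophage-like cells fell into 6 subclusters and dendritic-like cells into 3. Subcluster 1 of the macrophages (2092 cells) was led by Dcstamp, Cxcl3 and Areg, and subcluster 2 (1743 cells) by the interferon-induced genes Ifit3, Rsad2 and Ifit2. Subcluster 3 (1681 cells) was led by Serpina3g and Cxcl9, which interferon gamma induces, and subcluster 4 (1470 cells) by Gas6, Cbr2 and Folr2. Subcluster 5 (703 cells) held 6 of 6 proliferation markers, and subcluster 6 (354 cells) was led by the replication genes Ung, Cdc6 and Mcm2. Ciita itself stood among the 10 leading genes of macrophage subcluster 3, although it took no part in the clustering.

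Among the dendritic-like cells, subcluster 1 (474 cells) held 4 of 7 markers of Cd209a-type dendritic cells. Subcluster 2 (103 cells) held 7 of 8 markers of migratory dendritic cells with Ccr7, and subcluster 3 (92 cells) held 7 of 7 markers of type 1 conventional dendritic cells. Cd209a itself was found in only 22.6% of subcluster 1 cells, and in 17.4% of subcluster 3 cells. Subcluster 1 also held 2 of 7 type 1 and 2 of 8 migratory markers, and subcluster 3 held 2 of 7 Cd209a-type markers, so the names are loose. Within the class, the leading genes of dendritic subcluster 3 included Xcr1 but also Pbk, Esco2, Depdc1a and Ccna2. These 4 also stood among the leading genes of the proliferating macrophage subcluster 5. Macrophage and monocyte markers were present in dendritic subcluster 1, at 4136 CPM in control and 3621 CPM in telmisartan cells, against 18590 and 18790 CPM in macrophage-like cells. The study placed cells of a similar profile, high in H2-Eb1, H2-Ab1 and Il1r2, among its macrophages, so the pooled ratio is also given below with that subcluster counted in.

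The sum of the 9 genes separated the classes. It was 51000 CPM in dendritic-like cells, 11500 CPM in macrophage-like cells, 2563 CPM in T-like cells and 1221 CPM in neutrophil-like cells. The levels of T-like and neutrophil-like cells are used below as a rough background, and how much of them is free RNA, missed doublets or their own transcript was not tested. The dendritic-like level was 4.43-fold the macrophage-like level, with 3.81-fold in control (3.79 to 3.83) and 5.66-fold in telmisartan (5.62 to 5.70), and the macrophage-like level was 4.49-fold the T-like level (4.31 to 4.68).

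Within classes, the order of the sum ran from dendritic subcluster 1 at 56570 CPM through subcluster 3 at 48050 CPM to the migratory subcluster 2 at 22300 CPM. Macrophage subcluster 3 followed at 18950 CPM and subcluster 4 came last among macrophages at 4551 CPM. The 4 others lay between 10360 and 11450 CPM, and their order was not the same in both pools. In control cells subcluster 6 led these 4 with 12670 CPM. In telmisartan cells it was the lowest of them with 7400 CPM, so these 4 are not ranked here.

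**Figure D1:**
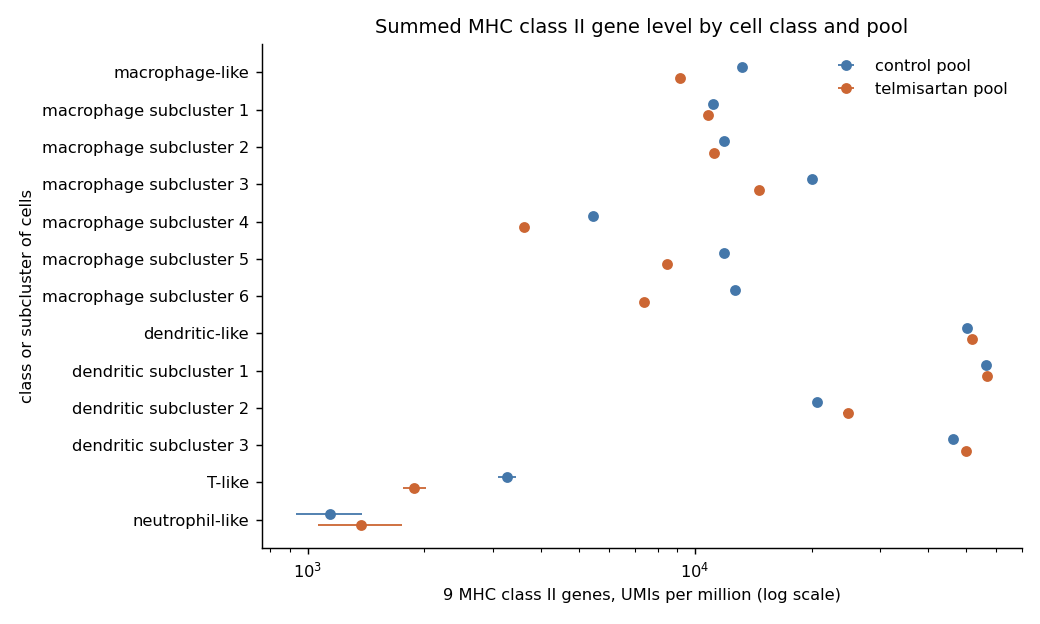
Summed level of the 9 genes in CPM on a log axis, by class or subcluster, with 1 point per pool and bars for the 95% counting interval. Dendritic-like pools lie at 50460 and 51740 CPM, and macrophage-like pools at 13250 and 9138 CPM.

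H2-Aa codes for the alpha chain of the I-A molecule, the only classical class II molecule that C57BL/6 mice place on the surface. In macrophage-like cells it stood at 2753 CPM in the control pool and 1842 CPM in the telmisartan pool. The telmisartan pool was the lower one, with a log2 ratio of -0.58 (-0.59 to -0.56). In dendritic-like cells the pools held 11520 and 11650 CPM of H2-Aa, and the interval of their ratio included 0.

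H2-Ab1 codes for the beta chain that pairs with H2-Aa. Macrophage-like cells held 2973 CPM of it in control and 2096 CPM in telmisartan, a log2 ratio of -0.51 (-0.52 to -0.49). Dendritic-like cells held 12620 and 13090 CPM, a log2 ratio of 0.05 (0.03 to 0.07). The dendritic-like pools were thus nearly level, and in dendritic subcluster 1 the interval of the ratio included 0.

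H2-Eb1 codes for the I-E beta chain, which has no working partner in C57BL/6 mice because their I-E alpha gene is broken. Its transcript was present all the same, at 1832 CPM in control and 1230 CPM in telmisartan macrophage-like cells. The log2 ratio was -0.57 (-0.59 to -0.56), close to that of the I-A chains. Dendritic-like cells held 8917 and 9190 CPM of H2-Eb1, a log2 ratio of 0.04.

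Cd74 codes for the invariant chain, the chaperone of newly made class II molecules. Its level was 5104 CPM in control and 3568 CPM in telmisartan macrophage-like cells, a log2 ratio of -0.52 (-0.53 to -0.51). In dendritic-like cells it was 15310 and 15770 CPM, a log2 ratio of 0.04 (0.02 to 0.06). In macrophage-like cells Cd74 thus moved with the chains it guards.

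H2-DMa codes for the alpha chain of the peptide exchange factor, and H2-DMb1 and H2-DMb2 code for its alternative beta chains. In macrophage-like cells H2-DMa stood at 325 CPM in control and 241 CPM in telmisartan, a log2 ratio of -0.43 (-0.47 to -0.39). H2-DMb1 stood at 186 and 118 CPM, a log2 ratio of -0.66 (-0.72 to -0.60). H2-DMb2 was sparser, at 41.6 and 24.5 CPM, with a log2 ratio of -0.76 (-0.89 to -0.63). All 3 were lower in the telmisartan pool, H2-DMa by the least.

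In dendritic-like cells the H2-DM genes hardly differed between the pools. H2-DMa stood at 697 CPM in control and 703 CPM in telmisartan, H2-DMb1 at 386 and 375 CPM, and H2-DMb2 at 618 and 651 CPM. The intervals of all 3 ratios included 0.

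H2-Oa codes for the alpha chain of H2-O, which holds H2-DM back in B cells and some dendritic cells. Macrophage-like cells gave 49 UMIs of it in control and 35 in telmisartan, or 1.28 and 1.24 CPM. T-like cells held 7.85 CPM from 7 UMIs, so they are no floor for this gene, and whether macrophage-like cells express it cannot be told from these counts. Dendritic-like cells held 58.2 and 62.5 CPM, and the interval of their log2 ratio, -0.24 to 0.44, included 0.

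Ciita is the switch that the other members depend on. Its level in macrophage-like cells was 37.2 CPM in control, from 1420 UMIs, and 17.7 CPM in telmisartan, from 500 UMIs. The telmisartan pool was lower, with a log2 ratio of -1.07 (-1.23 to -0.93), the lowest ratio among the 9 genes. Against T-like cells of its own pool the macrophage-like level was 16.3-fold in control (2.92 to 644) and 1.60-fold in telmisartan (0.683 to 4.96). These folds rest on 1 and 5 T-like UMIs, and their intervals overlap. The telmisartan level is not set apart from background by that gauge. In dendritic-like cells Ciita was 326 CPM in control and 256 CPM in telmisartan, a log2 ratio of -0.35 (-0.50 to -0.19). Ciita was therefore lower in dendritic-like cells of the telmisartan pool, although none of the 8 other members was lower there beyond counting error.

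Dexi, a gene on the opposite strand that overlaps Ciita by 25888 bases, also has a column. It held 8.86 CPM in control and 6.99 CPM in telmisartan macrophage-like cells, a log2 ratio of -0.34, and whether reads of 1 gene were counted for the other cannot be told from the table. Gm20513, which overlaps H2-Eb1 on the other strand by 2204 bases, held 1.44 and 1.66 CPM. BC051537, antisense to the whole of H2-Oa, held 13 UMIs in macrophage-like cells, 7 control and 6 telmisartan. Brd2, which overlaps the first 3094 bases of H2-DMa on the other strand, rose from 145 to 204 CPM while H2-DMa fell.

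As a background, the same ratio was taken for all 11074 genes with at least 100 UMIs in macrophage-like cells of both pools together. At least 1.5-fold lower in telmisartan were 3 of the 8 members that reach 100 UMIs (H2-DMb1, H2-DMb2 and Ciita), against 2.25% of all genes. At least 1.5-fold higher were 0 of 8, against 4.78%. With the mix of subclusters evened out, as given below, only Ciita of these 3 stays at least 1.5-fold lower, against 1.98% of all genes under that weighting. The median log2 ratio was -0.58 over the 8 members and -0.05 over all genes.

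Placed among those 11074 genes, only 0.226% had a log2 ratio below that of Ciita, and 0.858% had a log2 ratio below that of H2-DMb2. For H2-Aa the share was 2.29% and for H2-DMa, the member nearest to 0 of the 8, it was 5.77%. H2-Oa missed the minimum of 100 UMIs.

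In dendritic-like cells all 9 members reached 100 UMIs. None was at least 1.5-fold lower in telmisartan, against 3.12% of 5860 genes, and none was at least 1.5-fold higher, against 3.74%. The median log2 ratio was 0.04 over the members and -0.02 over all genes. Of those 5860 genes, 55.9% had a log2 ratio below that of H2-Aa, 61.2% below that of H2-Ab1 and 12.2% below that of Ciita.

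The summed level was 13250 CPM in control and 9138 CPM in telmisartan macrophage-like cells, a log2 ratio of -0.54 (-0.54 to -0.53). The subcluster with the most cells is not the same in the pools. Subcluster 3 leads in control, with 1307 of 4050 cells there and 374 of 3993 telmisartan cells. Subclusters 1 and 2 lead in telmisartan, with 1266 and 1118 cells there and 826 and 625 control cells. Within every subcluster the summed level is free of that difference in mix, but states inside a subcluster may still differ in share. At resolution 0.8, 1 macrophage-like cluster held 270 control and 1033 telmisartan cells, and another held 413 and 86.

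Subcluster 1 held 11090 CPM in control and 10790 CPM in telmisartan, a log2 ratio of -0.04 (-0.05 to -0.03). Subcluster 2 held 11880 and 11200 CPM, a log2 ratio of -0.09 (-0.11 to -0.06). In these subclusters, which hold most macrophages of the telmisartan pool, the pools were nearly level over cells of all depths. None of the 8 members with 100 UMIs was at least 1.5-fold lower in either, against 2.86% of all genes in subcluster 1 and 3.49% in subcluster 2. By range of UMIs per cell, as given below, the log2 ratio of the sum ran from -1.03 to 0.06 in subcluster 1. In subcluster 2 it ran from -0.78 to 0.49.

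Subcluster 3, with the interferon gamma genes, held 19980 CPM in control and 14590 CPM in telmisartan. Its log2 ratio was -0.45 (-0.47 to -0.44), and 2 of 8 members, H2-DMb2 and Ciita, were at least 1.5-fold lower, against 3.81% of all genes. Subcluster 4 had the lowest class II level, 5441 CPM in control and 3609 CPM in telmisartan, where T-like cells hold 3269 and 1882 CPM. Its log2 ratio was -0.59 (-0.62 to -0.57), and 5 of 8 members were at least 1.5-fold lower, against 3.53%.

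Subcluster 5, the proliferating cells, held 11860 CPM in control and 8447 CPM in telmisartan, a log2 ratio of -0.49 (-0.51 to -0.47). There 3 of 8 members were at least 1.5-fold lower, against 2.81%. The replicating cells of subcluster 6 held 12670 and 7400 CPM, a log2 ratio of -0.78 (-0.81 to -0.74), with 7 of 8 members at least 1.5-fold lower, against 4.24%. Over cells of all depths the lower level in telmisartan thus spanned subclusters 3 to 6 and was small in 1 and 2. Ranges of depth within subclusters are given below, and they did not all go 1 way.

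Single genes followed the sum in most subclusters, with exceptions. H2-DMa in subcluster 1 was higher in telmisartan, at 200.0 CPM in control and 254 CPM, a log2 ratio of 0.34 (0.25 to 0.43). Ciita in subcluster 1 was lower, at 20.6 and 14.9 CPM, a log2 ratio of -0.47 (-0.80 to -0.14), while the chains there were almost level. Ciita in subcluster 6 was 35.1 CPM from 120 UMIs in control and 8.03 CPM from 11 UMIs in telmisartan, a level within the T-like interval of 2.47 to 14.6 CPM, so no size is given for that gap.

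**Figure D2:**
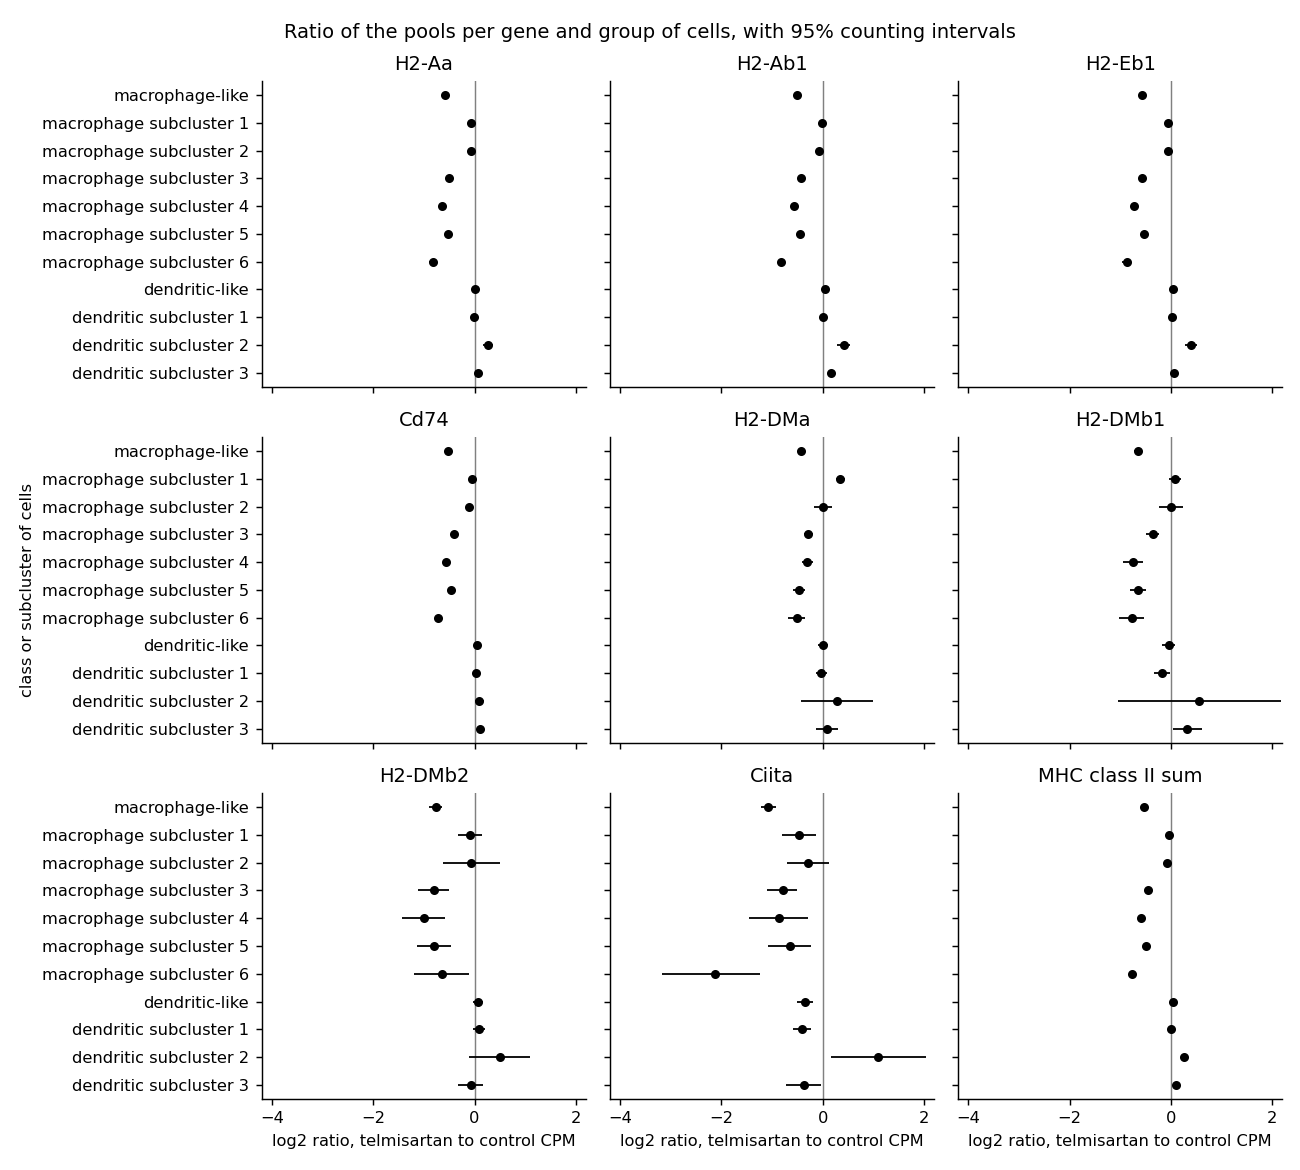
Log2 ratio of telmisartan to control CPM for 8 genes and their sum with H2-Oa, by class or subcluster, with bars for the 95% counting interval and a line at 0. The sum lies at -0.54 in macrophage-like and 0.04 in dendritic-like cells, and Ciita at -1.07 and -0.35.

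Weighting both pools to the subcluster shares of all macrophage-like cells gave 12220 CPM in control and 10010 CPM in telmisartan, a log2 ratio of -0.29. The pooled log2 ratio of -0.54 therefore holds a part that goes with the mix of subclusters and a part within subclusters. Leaving out subcluster 3 gave -0.24, and leaving out subcluster 2, whose median depth is 2616 UMIs, gave -0.60. With dendritic subcluster 1 counted among the macrophages the log2 ratio was -0.43. Ciita weighted in the same way was 33.5 CPM in control and 21.6 CPM in telmisartan, a log2 ratio of -0.64. It is the only 1 of the 8 members that stays at least 1.5-fold lower under this weighting, where 1.98% of all genes are: H2-DMb2 moved to -0.51, H2-DMb1 to -0.28 and H2-DMa to -0.14. H2-Aa moved to -0.32, H2-Ab1 to -0.26, H2-Eb1 to -0.33 and Cd74 to -0.28.

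Depth differed between the pools, so the ratio was also taken among macrophage-like cells of like depth. From 4000 to 8000 UMIs per cell the sum was 14050 CPM in 1059 control cells and 10180 CPM in 1345 telmisartan cells, a log2 ratio of -0.46. From 8000 to 12000 UMIs it was 14110 and 8504 CPM, a log2 ratio of -0.73. The 5 depth ranges gave log2 ratios from -0.73 to -0.32, all below 0. Within subclusters the ranges did not all go 1 way. From 4000 to 8000 UMIs the log2 ratio was 0.06 in subcluster 1 and 0.49 in subcluster 2. The other ranges of subcluster 1 lay below 0, at -1.03 below 2000, -0.49 from 2000 to 4000, -0.26 from 8000 to 12000 and -0.15 from 12000 UMIs. In subcluster 2 the log2 ratio was -0.19 below 2000, -0.78 from 8000 to 12000 and -0.32 from 12000 UMIs. There the interval from 2000 to 4000 UMIs included 0. Subcluster 5 was above 0 from 2000 to 4000 UMIs (0.63, from 6 control and 8 telmisartan cells) and level from 4000 to 8000. Its other ranges lay below 0, at -1.25 below 2000, -1.22 from 8000 to 12000 and -0.36 from 12000 UMIs. The shallowest range of subcluster 3, with 1 telmisartan cell, gave 0.31 with an interval that included 0. In subcluster 4 all 5 log2 ratios were below 0, though the intervals of the 2 ranges under 4000 UMIs included 0, and in subcluster 6 all 3 intervals lay below 0.

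To compare single cells, each was thinned at random to 1000 UMIs, which left out 45 control and 71 telmisartan macrophage-like cells with fewer. Before thinning, 99.2% of macrophage-like cells (median depth 7559 UMIs) and 87.6% of T-like cells (median depth 3264.5 UMIs) held a UMI of the 9 genes. After thinning the shares were 85.9% and 60.5%, and 71.8% in neutrophil-like cells. A single UMI therefore says little about a cell, and counts of 10 or more per 1000 are used below, which 4.07% of T-like and 0 of 71 neutrophil-like cells reached.

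Dendritic-like cells were nearly all high, with 95.5% at 10 or more class II UMIs and a median of 53. Macrophage-like cells spread widely around a median of 4, with 14.1% at 0 and 34.9% at 10 or more. In the control pool 40.2% reached 10 and in the telmisartan pool 29.4%. No gap parts low from high macrophages, since 6.48% of cells lie from 8 to 11, so these are ranges and not types.

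The control pool held more cells in both upper ranges and fewer in both lower ranges. Without Ciita, 18.2% of control macrophage-like cells held 30 or more class II UMIs per 1000, against 11.3% of telmisartan cells. From 10 to 29 UMIs the shares were 22.0% and 17.9%. From 1 to 9 UMIs they were 47.2% and 55.0%, and at 0 they were 12.6% and 15.7%. Cells with 30 or more made up 14.8% of macrophage-like cells and held 55.7% of their class II UMIs.

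Subcluster 3 held the largest share of such cells in both pools, with 31.1% of control and 19.3% of telmisartan cells at 30 or more. In subcluster 4 only 3.96% of control and 1.65% of telmisartan cells reached 30. Subclusters 1 and 2 kept like shares in the pools, 15.6% against 14.6% and 13.8% against 13.2%.

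Ciita followed the class II content of the cell. Over both pools it was 2.39 CPM in macrophage-like cells without a class II UMI among 1000, 6.70 CPM with 1 to 9, 45.7 CPM with 10 to 29 and 111.0 CPM with 30 or more. Ciita is thus concentrated in the upper ranges. Macrophage-like cells with a UMI of the general dendritic marker list, described below, were also more frequent at the top. Their share was 8.3% at 0, 9.53% from 1 to 9 and 18.7% at 30 or more, with the remaining range in between. The part of such cells in the Ciita gradient was not tested. T-like cells in the lower 2 ranges gave 1 and 2 UMIs of Ciita, too few to tell whether macrophage-like cells there exceed background.

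Among all macrophage-like cells of like class II content, Ciita was also lower in the telmisartan pool in the upper ranges. At 30 or more class II UMIs it was 122.0 CPM in control and 84.9 CPM in telmisartan, a log2 ratio of -0.53 (-0.74 to -0.32). From 10 to 29 UMIs it was 52.9 and 32.9 CPM, a log2 ratio of -0.68 (-0.95 to -0.42). Within single subclusters this mostly was not resolved: the intervals of both ratios included 0 in subclusters 2, 3, 4 and 5, and in subcluster 1 that from 10 to 29 did. Both intervals lay below 0 in subcluster 6, from 5 and 2 telmisartan UMIs, and in subcluster 1 that at 30 or more did. The share of thinned cells with a Ciita UMI, 3.50% in control and 1.81% in telmisartan macrophage-like cells, stands beside 2.33% in T-like cells, so the share alone does not tell expression from free RNA.

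**Figure D3:**
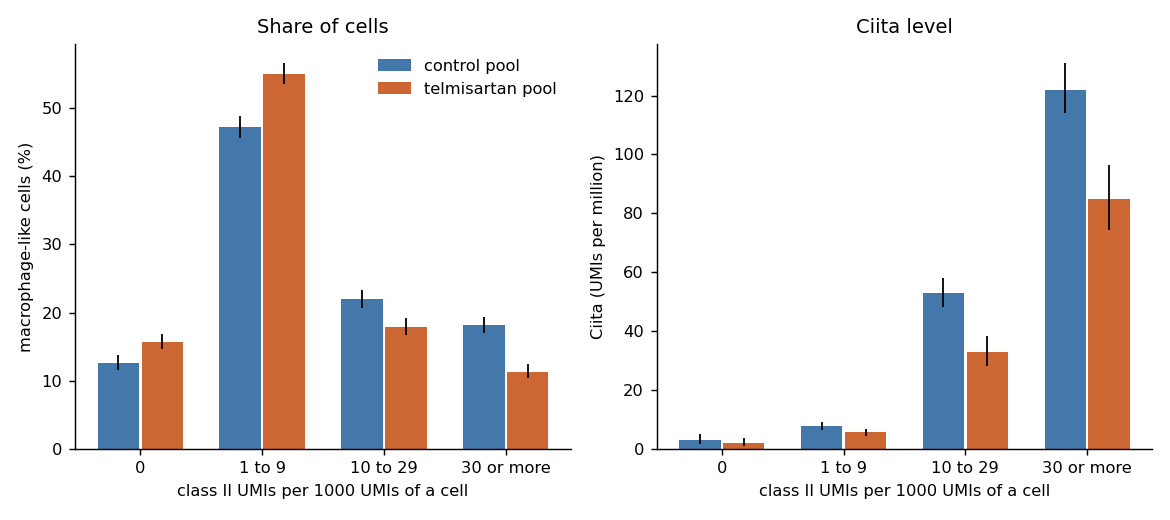
Macrophage-like cells of each pool by class II UMIs per 1000 UMIs of a cell (8 genes without Ciita): the share of cells in percent and the Ciita level in CPM, with 95% counting intervals. At 30 or more lie 18.2% of control and 11.3% of telmisartan cells, with Ciita at 122.0 and 84.9 CPM.

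The dendritic subsets differed from each other in level, and no subset had a lower sum in telmisartan beyond counting error. Subcluster 1, the Cd209a-type cells, held 56520 CPM in control and 56630 CPM in telmisartan, and the interval of its log2 ratio included 0. The migratory subcluster 2 held 20620 and 24780 CPM, a log2 ratio of 0.27 (0.21 to 0.32). T cell markers also rose in this subcluster, from 8.77 CPM (3 UMIs of 3 of 8 genes, Trac first, with Cd3d, Cd3e, Cd3g, Skap1 and Gimap3 at 0) in control to 138 CPM (32 UMIs of 8 of 8 genes, Trbc2 first) in telmisartan, and their part in the result was not tested. They lay in few cells, Trbc2 in 3 of 103 and Cd3e in 1. Subcluster 3, the type 1 cells, held 46480 and 49950 CPM, a log2 ratio of 0.10 (0.08 to 0.13). Migratory cells combine surface class II that lasts with little new transcript, and their transcript level here was the lowest of the 3 subsets in both pools.

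Ciita went in opposite directions in the subsets. It was 370 CPM in control and 279 CPM in telmisartan in subcluster 1, a log2 ratio of -0.41 (-0.59 to -0.23), and 334 and 257 CPM in subcluster 3, a log2 ratio of -0.38 (-0.73 to -0.03). In migratory cells it was 52.6 CPM from 18 UMIs in control and 112 CPM from 26 UMIs in telmisartan, a log2 ratio of 1.09 (0.17 to 2.04). That value rests on 58 control and 45 telmisartan cells. Markers of other subsets were lower in the telmisartan part of subcluster 1. The type 1 markers summed to 299.7 CPM in control and 192.3 CPM in telmisartan, and the migratory markers to 1621 and 1144 CPM. In subcluster 3 the migratory markers were near level, at 488.5 and 480.4 CPM. The part of these markers in the Ciita result was not tested. H2-DMb1 in subcluster 3 rose from 387 to 483 CPM, a log2 ratio of 0.32, and in subcluster 1 it fell from 447 to 396 CPM, a log2 ratio of -0.17.

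Migratory cells held less of all 9 members than dendritic subcluster 1, by unequal folds. Over both pools the sum was 2.54-fold higher in dendritic subcluster 1 than in migratory cells (2.49 to 2.58). H2-DMb1 was 15.3-fold higher (9.38 to 26.8) and H2-DMa 6.08-fold higher (4.82 to 7.78) in the same comparison. H2-DMb2, the alternative beta chain, was 4.23-fold higher (3.46 to 5.23) and H2-Ab1 3.59-fold (3.44 to 3.74). The fold of Ciita was not the same in the pools, 7.03 in control (4.42 to 11.9) and 2.49 in telmisartan (1.67 to 3.86). The type 1 cells gave folds over migratory cells of 15.4 for H2-DMb1 and 6.09 for H2-DMa, near those of subcluster 1, and lower ones of 3.40 for H2-DMb2 and 2.16 for the sum.

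The make-up of the class II transcripts differed between macrophages and dendritic cells. The figures that follow compare the same ratio of UMIs between groups of cells, not 1 gene with another. Per 1000 UMIs of the 3 classical chains, macrophage-like cells held 680 of Cd74 and dendritic-like cells 464. For the 3 H2-DM genes the values were 73.5 and 51.2, and for Ciita 4.42 and 8.88. By subcluster the H2-DM values ran from 44.64 to 130.9 in macrophages and from 22.45 to 56.74 in dendritic cells. Those of Ciita ran from 2.83 to 5.64 and from 5.28 to 9.51, so both overlapped between the classes.

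The use of the H2-DM beta chains also differed. H2-DMb2 made up 18.0% of the H2-DMb1 and H2-DMb2 UMIs in macrophage-like cells and 62.4% in dendritic-like cells. In migratory cells the share was 86.0%. T-like cells gave 13.5%, from 5 of 37 UMIs, near the macrophage share. H2-DMb2 itself was 18.4-fold higher in dendritic-like than in macrophage-like cells over both pools, with 14.9-fold in control (13.9 to 15.9) and 26.5-fold in telmisartan (24.2 to 29.1). H2-DMb1 was 2.43-fold higher, with 2.08-fold in control and 3.18-fold in telmisartan.

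H2-Oa, at 60.0 CPM in dendritic-like cells over both pools, has no usable fold over macrophage-like cells because so few of their UMIs are H2-Oa. Ciita was 10.3-fold higher in dendritic-like than in macrophage-like cells, with 8.76-fold in control and 14.5-fold in telmisartan. H2-Ob, the partner of H2-Oa, gave 114 CPM in dendritic-like and 4.81 CPM in macrophage-like cells. Dendritic-like cells thus carried both chains of the H2-DM inhibitor, and macrophage-like cells carried the exchange factor with little of it.

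Markers of other cell types were measured beside the macrophage-like result. All 10 dendritic markers of the general list had UMIs in macrophage-like cells, with a summed level of 17.3 CPM in control and 20.1 CPM in telmisartan, Ccr7 the most abundant, against 1821 and 1813 CPM in dendritic-like cells. Among macrophage-like cells with no UMI of these 10 markers, the log2 ratio of the class II sum was -0.52. All 8 T cell markers were found too, at 12.3 and 14.3 CPM, with Trbc2 the most abundant in control and Skap1 in telmisartan.

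The summed list of Cd209a-type markers was lower in telmisartan, and Mgl2 carried the fall of the sum. Its 7 genes all had UMIs in macrophage-like cells, and they summed to 578 CPM in control and 334 CPM in telmisartan. Mgl2, also known as a macrophage gene, was the most abundant, at 425 and 159 CPM, and fell by more CPM than the whole list, so the 6 others together did not fall. Tnip3 was the most abundant of those 6, with 9359 UMIs, and single genes among them are not given by pool. The list was also lower in dendritic-like cells, at 2813 and 2042 CPM with Mgl2 at 2096 and 1332 CPM, where the class II sum was not. The type 1 dendritic list, 7 of 7 genes with Wdfy4 on top, summed to 89.4 and 85.7 CPM, and the migratory list, 8 of 8 genes, to 490 and 445 CPM, with Cd63 on top in control and Tmem123 in telmisartan. The part of these cells in the result was not tested.

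The classes used as background did not go 1 way. The sum in T-like cells was 3269 CPM in control and 1882 CPM in telmisartan, a log2 ratio of -0.80 (-0.92 to -0.67). Few cells carry it: after thinning, 3 control cells with 10 to 29 class II UMIs and 1 with 30 or more held 37.7% and 24.0% of the class II UMIs of T-like control cells, and 2 and 1 telmisartan cells held 13.8% and 28.1%. Neutrophil-like cells held 1142 and 1375 CPM, a log2 ratio of 0.27 with an interval that included 0. Macrophage and monocyte markers were lower in telmisartan in both classes. They were at 6150 and 3947 CPM in T-like cells and at 3546 and 2200 CPM in neutrophil-like cells, and their part in the result was not tested. Ciita in T-like cells was 1 UMI in control and 5 in telmisartan, too few to read. How much free RNA adds to each macrophage-like pool was not tested.

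The wider presentation route was read from a list of 32 genes, of which 30 have columns. Among the 29 with at least 100 UMIs in macrophage-like cells, 1 was at least 1.5-fold lower in telmisartan and 1 was at least 1.5-fold higher, against 2.25% and 4.78% of all genes, so neither count stands out. The median log2 ratio was 0.04. The lower one was March1, a ubiquitin ligase that takes class II off the surface, at 101 CPM in control and 56.8 CPM in telmisartan, a log2 ratio of -0.83 (-0.92 to -0.75). The higher one was Irf1, an interferon-induced factor that acts on the Ciita promoter, at 157 and 239 CPM, a log2 ratio of 0.60 (0.55 to 0.66). Among macrophage subclusters Irf1 was highest in subcluster 2, at 392 CPM, and March1 in subcluster 3, at 131 CPM. Neither ratio is evened for the mix of subclusters.

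The DNA-binding partners of Ciita went in both directions by small amounts. Rfx5, a subunit of the RFX complex, was 5.97 CPM in control and 4.73 CPM in telmisartan macrophage-like cells, a log2 ratio of -0.34 (-0.66 to -0.02). Rfxap, another subunit, was higher in telmisartan, at 12.2 and 14.3 CPM, a log2 ratio of 0.23 (0.03 to 0.42), and the interval of Rfxank, at 6.29 and 6.08 CPM, included 0.

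Of the NFY subunits, which bind the Y box, Nfya was higher in telmisartan, at 43.7 and 50.7 CPM, a log2 ratio of 0.21 (0.11 to 0.32). Nfyb was lower, with 846 UMIs in control and 538 in telmisartan, a log2 ratio of -0.22, as was Nfyc, at 42.0 and 38.1 CPM, a log2 ratio of -0.14. The interval of Creb1, at 51.9 and 48.7 CPM, included 0. The interferon gamma receptor chain Ifngr1 was higher in telmisartan, at 169 and 187 CPM, a log2 ratio of 0.14.

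The costimulatory gene Cd86, whose surface protein March1 also removes, was 309 CPM in control and 432 CPM in telmisartan macrophage-like cells, a log2 ratio of 0.48 (0.45 to 0.52). Of the proteases that trim the invariant chain, Ctss was 3804 and 3527 CPM, a log2 ratio of -0.11, and Ctsl was 764 and 862 CPM, a log2 ratio of 0.18. Ctsl, Ctsb and Lgmn were highest in macrophage subcluster 4, at 1549, 4128 and 824 CPM. Ctss and Ctsh were highest among macrophages in subcluster 3, at 4516 and 395 CPM, against 4172 and 303 CPM in subcluster 4, so the proteases did not share 1 order.

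In dendritic-like cells 25 genes of the list reached 100 UMIs. None was at least 1.5-fold lower in telmisartan and 1 was at least 1.5-fold higher, Ctsd, at 55.1 CPM in control and 84.8 CPM in telmisartan. Over all genes the shares were 3.12% and 3.74%, so these counts do not stand out either. The median log2 ratio was 0.06. March1 was nearly absent from migratory cells, at 5.23 CPM against 111 CPM in subcluster 1 and 151 CPM in subcluster 3, and H2-Eb2, a relative of H2-Eb1, was highest in migratory cells at 90.6 CPM.

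Likeness of pattern was measured as Pearson's r with the mean of the chains and Cd74, on log2 of CPM plus 10. It was taken over 18 units, the 9 subclusters in each of the pools. The units come from 1 capture and share depth and free RNA, so r is a description. H2-Aa, H2-Ab1, H2-Eb1 and Cd74 are part of that mean, so their r is not given. Among the others Ciita had 0.970, H2-DMb2 0.940 and H2-Oa 0.887. In the macrophage-like pools H2-Oa stood at 1.28 and 1.24 CPM, far under the 10 CPM added, so its r says little about macrophage units. H2-DMa with 0.655 and H2-DMb1 with 0.574 followed the mean least, and within the 12 macrophage units H2-DMa was the lowest with 0.511.

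Of 6900 other genes with at least 1000 UMIs, Klrb1b was most like the class II pattern, with r of 0.969. Its level ran from 4.21 CPM in macrophage subcluster 4 of control to 544 CPM in dendritic subcluster 1 of control. Napsa followed with 0.956, then Ifitm1 and Rin3 with 0.947. Il1r2 was the tenth, with 0.914. Within the 12 macrophage units Pdcd10 came first, with r of 0.959, then Sorl1 with 0.916.

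By position, 7 of the 9 genes lie in the class II region of chromosome 17, within chr17:34092340-34316674 of GRCm38 (GENCODE M21), a span of 224335 bases with 13 protein-coding genes. Ciita lies apart at chr16:10480059-10528418 on the plus strand, and Cd74 also lies outside the region. The neighbours H2-DMb2 at chr17:34143307-34151555 and H2-DMb1 at chr17:34153072-34160230, both on the plus strand, are the beta chains whose balance differed between macrophage-like and dendritic-like cells.

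Promoters, 250 bases before to 50 bases after a gene's start, came from RefSeq on GRCm38.p6 for 6 of the 9 members in 7 entries. The promoter set used here has no entry for H2-Ab1, Cd74 and Ciita. Class II promoters are known for an X box followed by a Y box, the docking sites of the factors that Ciita joins, so the letters GCAAC (start of an X box) and GATTGG (Y box) were searched on both strands. GCAAC occurs in 35.2% of 32851 promoters of 300 bases, GATTGG in 16.1%, and GCAAC starting 25 to 35 bases before GATTGG on 1 strand in 0.204%. The words do not overlap each other in any pair.

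That pair stood on the gene's strand in 3 of the 6 members, H2-Aa, H2-Eb1 and H2-Oa, with start to start distances of 32, 31 and 32 bases. H2-DMb1 has GTAAC in place of GCAAC at a distance of 32 bases, and with GNAAC as the first word 0.651% of all promoters hold the pair. H2-DMb2 holds GATTGG with neither word at that distance, and of the H2-DMa entries 1 holds GATTGG and none holds the pair. H2-Eb1 holds GATTGG on the other strand as well. H2-Ob and H2-Eb2 from the wider list hold the GCAAC pair too, at 29 and 31 bases. The match is a description of letters only.

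The promoters below are printed because H2-Aa, H2-Eb1, H2-DMa, H2-DMb1 and H2-DMb2 were all lower in the telmisartan macrophages, with and without the pair, while H2-Oa holds the pair and was barely counted there. They are chr17:34287774-34288073 on the minus strand for H2-Aa, chr17:34305617-34305916 for H2-Eb1, chr17:34122582-34122881 and chr17:34125268-34125567 for H2-DMa, chr17:34152941-34153240 for H2-DMb1, chr17:34144999-34145298 for H2-DMb2 and chr17:34092129-34092428 for H2-Oa, all but the first on the plus strand. The starts are those of RefSeq, and by the GENCODE positions H2-DMb2, H2-DMa, H2-DMb1 and H2-Oa begin earlier. The stretches of H2-DMb2 and H2-DMa therefore lie wholly inside those genes. Those of H2-DMb1 and H2-Oa lie inside in part, and both marked words of H2-DMb1 are in the inner part. Capitals mark GATTGG and, where the pair is present, GCAAC or GTAAC before it.
H2-Aa: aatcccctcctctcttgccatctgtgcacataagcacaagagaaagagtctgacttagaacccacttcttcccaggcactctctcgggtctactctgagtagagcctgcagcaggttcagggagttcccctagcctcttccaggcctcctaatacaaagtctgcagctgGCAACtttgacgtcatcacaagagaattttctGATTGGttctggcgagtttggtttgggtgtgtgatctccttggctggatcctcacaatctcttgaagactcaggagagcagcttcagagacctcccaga
H2-Eb1: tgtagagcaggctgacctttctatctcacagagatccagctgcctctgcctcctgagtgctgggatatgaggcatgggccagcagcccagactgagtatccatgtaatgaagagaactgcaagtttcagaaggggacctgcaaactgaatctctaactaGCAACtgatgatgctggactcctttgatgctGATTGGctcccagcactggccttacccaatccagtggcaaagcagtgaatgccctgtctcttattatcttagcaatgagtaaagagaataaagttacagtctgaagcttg
H2-DMa first entry: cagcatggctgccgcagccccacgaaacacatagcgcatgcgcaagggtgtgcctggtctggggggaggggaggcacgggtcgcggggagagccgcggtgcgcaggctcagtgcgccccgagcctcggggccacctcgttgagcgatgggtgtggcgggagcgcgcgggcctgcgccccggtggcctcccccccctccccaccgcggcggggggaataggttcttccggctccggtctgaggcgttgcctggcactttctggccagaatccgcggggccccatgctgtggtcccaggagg
H2-DMa second entry: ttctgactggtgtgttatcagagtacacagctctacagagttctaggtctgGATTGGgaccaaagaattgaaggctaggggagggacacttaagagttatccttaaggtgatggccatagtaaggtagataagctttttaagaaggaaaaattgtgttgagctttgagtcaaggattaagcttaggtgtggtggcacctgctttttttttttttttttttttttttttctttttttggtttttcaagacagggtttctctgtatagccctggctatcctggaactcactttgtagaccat
H2-DMb1: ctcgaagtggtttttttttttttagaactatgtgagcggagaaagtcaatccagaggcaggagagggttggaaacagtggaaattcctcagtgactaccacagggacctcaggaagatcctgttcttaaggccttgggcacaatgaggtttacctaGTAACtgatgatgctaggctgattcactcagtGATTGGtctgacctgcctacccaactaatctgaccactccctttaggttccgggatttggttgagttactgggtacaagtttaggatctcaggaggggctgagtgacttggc
H2-DMb2: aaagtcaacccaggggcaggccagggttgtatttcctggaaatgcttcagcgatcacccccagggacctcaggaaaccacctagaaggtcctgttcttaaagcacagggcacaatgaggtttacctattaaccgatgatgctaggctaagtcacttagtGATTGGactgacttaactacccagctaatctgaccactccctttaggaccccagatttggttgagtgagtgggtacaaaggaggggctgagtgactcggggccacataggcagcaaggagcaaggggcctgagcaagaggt
H2-Oa: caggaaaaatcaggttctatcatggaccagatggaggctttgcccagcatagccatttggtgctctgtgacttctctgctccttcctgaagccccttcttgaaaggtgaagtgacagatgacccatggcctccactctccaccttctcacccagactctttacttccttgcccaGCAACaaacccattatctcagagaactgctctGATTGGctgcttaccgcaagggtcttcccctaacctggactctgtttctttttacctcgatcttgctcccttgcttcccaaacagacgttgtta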

How the data were processed

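The values used are the UMI counts per cell that the authors deposited, from version 1.11 of the BD Rhapsody pipeline, which aligned to GRCm38 with GENCODE M19 and also counted intronic reads, together with the Sample Tag read counts the authors deposited. The pipeline corrects UMI errors, and the raw reads were not analysed here.

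The gene table holds 20726 putative cells and 107214449 UMIs, and the same 20726 barcodes are in the tag table. A cell went to the pool whose tag held at least 75% of at least 10 tag reads. Cells with 150 to 5000 genes and at most 20% mitochondrial UMIs were kept. Scrublet, run through scanpy 1.11.5 because the tool of the study was not at hand, marked 0 cells by its own limit, so the 9.51% with the highest scores, the share of same-tag doublets predicted from tag multiplets, were removed (942 cells).

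Seurat 5.3.0 in R 4.3.3 clustered the cells with 2000 variable genes without the 9 members, 30 components and resolution 0.5. A class needed at least 3 markers at 4-fold. Subclusters used the lowest resolution giving at least 6 macrophage and 3 dendritic clusters, 0.4 and 0.05. The members and lists were chosen with earlier results of these data known.

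CPM came from summed counts, with exact Poisson and binomial intervals. The code for the ratio and its interval was run on simulated pool sums, where 95.5% of intervals held the true ratio. Those sums were drawn by the same counting model that the interval assumes, so that share was largely set in advance. Clustering of UMIs in cells and spread between mice were not simulated. Python 3.11.15, numpy 2.4.6, scipy 1.17.1, pandas 2.3.3, matplotlib 3.10.9 and edgeR 4.0.16 (TMM alternative) were used. Alternatives covered tag share, gene and mitochondrial limits, doublets, variable genes, resolution, scaling, depth, UMI minimum and, chosen after the data had been seen, the mix of subclusters.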

Additional observations from a re-analysis of the deposited data

Results flagged for a closer look

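For the class II sum the telmisartan pool was lower in macrophage-like cells and nearly level in dendritic-like cells, at 102.5% of control. The dendritic-like log2 ratio was higher by 0.57. In dendritic subcluster 1, with 474 of the 669 dendritic-like cells, the log2 ratio was 0.003 and its interval included 0. Without scaling for depth the dendritic-like log2 ratio of the sum turned to -0.15, the same direction as in macrophage-like cells. Leaving out that scaling moves all genes of a class alike, so the turn is not particular to class II genes. Scaled for depth, the same pattern held for H2-Ab1 (0.56 higher), H2-Eb1 (0.62 higher) and Cd74 (0.56 higher), and in dendritic subcluster 1 their intervals included 0. These gaps depend on the mix of subclusters. With the mix evened out the macrophage-like log2 ratios were nearer 0, at -0.29 for the sum, -0.26 for H2-Ab1, -0.33 for H2-Eb1 and -0.28 for Cd74, beside 0.034, 0.046, 0.049 and 0.039 in dendritic-like cells. Each interval covers counting error only, and the difference between the classes was not tested.

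H2-DMa was higher in telmisartan in macrophage subcluster 1, with a log2 ratio of 0.34, while its interval lay below 0 in 4 other subclusters. H2-DMb1 was higher in dendritic subcluster 3, with a log2 ratio of 0.32, and lower in subcluster 1. Ciita was higher in the migratory dendritic subcluster 2, with a log2 ratio of 1.09, and lower in subclusters 1 and 3. T cell markers were also higher in the telmisartan part of dendritic subcluster 2, in few cells. Type 1 and migratory markers were lower in the telmisartan part of dendritic subcluster 1. These differences were not tested.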

How the results depend on the processing

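No paired analysis was possible because each group is 1 pool. The limits are 1 pool per group, 1 capture, unequal depth, class II UMIs in T-like cells, names rebuilt from markers, and subclusters that hold different shares of each pool. Transcript levels say nothing of protein on the surface.

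The macrophage-like log2 ratio of the sum stayed below 0 in all 19 alternatives. Values outside the counting interval were -0.51 with 500 genes, -0.51 with a 10% mitochondrial limit, -0.50 with no doublet removal, -0.49 at resolution 0.3, -0.46 as a mean per cell, -0.95 without scaling for depth, -0.53 without mitochondrial and ribosomal genes in the totals, -0.55 with TMM, -0.45 in thinned cells and -0.60 from 4000 to 12000 UMIs. Alternatives chosen after the data had been seen gave -0.60 without subcluster 2, -0.24 without subcluster 3, -0.52 without cells that hold dendritic markers, -0.43 with dendritic subcluster 1 counted in and -0.29 with weighting. Without scaling for depth the median of all genes moved to -0.46, and relative to it the sum was at -0.49.

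The dendritic-like log2 ratio turned to -0.15 without scaling for depth, a change that moves all genes of the class alike. It moved to 0.11 with a 90% tag share, 0.018 with 500 genes, 0.074 at 10% mitochondrial, 0.049 with no doublet removal, 0.049 with the members among the variable genes, 0.022 at resolution 0.3 and 0.055 with TMM.

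The dendritic to macrophage fold moved to 4.53 with a 90% tag share, 4.27 with no doublet removal, 4.30 at resolution 0.3, 4.38 per cell, 4.02 without scaling, 4.62 with the members out of the totals, 4.20 with TMM and 4.53 from 4000 to 12000 UMIs.

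Of all genes in macrophage-like cells, 778 were at least 1.5-fold apart, 249 lower and 529 higher. The count was 3358 without scaling, 95.7% of them lower instead of 32.0%, 1963 at a minimum of 20 UMIs and 289 at 1000 UMIs. Members at least 1.5-fold lower ranged from 1 with weighting, Ciita, to 8 without scaling, where 3213 of 11074 genes were. From 4000 to 12000 UMIs H2-Aa (-0.62), H2-Ab1 (-0.60) and H2-Eb1 (-0.66) passed beside H2-DMb1, H2-DMb2 and Ciita, 6 of 8 against 2.45% of all genes. For single members, 8 of 9 were below 0 in all 15 alternatives, and H2-Oa was below 0 in 13.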

Other observations

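In dendritic-like cells 29 of 663 thinned cells held only 1 to 9 class II UMIs per 1000, and 28 of them (96.6%) carried dendritic markers. At 30 or more class II UMIs 85.4% of cells did, so that share alone says little. The median was 37 marker UMIs at 1 to 9 and 4 at 30 or more. The 29 cells held no Ciita UMI, with an upper limit of 23.6 CPM, against 330 CPM at 30 or more.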
